A study of Mus musculus with 2 samples.

Results

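The dual-specificity MAP kinase phosphatases (MKPs) were examined as a family of 9 genes, Dusp1, Dusp2, Dusp4, Dusp5, Dusp6, Dusp7, Dusp8, Dusp10 and Dusp16. They were taken by gene symbol from a deposited table of 24013 symbols. Where a symbol had several transcript rows, the row with the highest mean was used, which applied to 1 member, Dusp16. All 9 members were present in the table.

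The table holds 1 RNA sequencing library from mice deficient in diacylglycerol kinase ζ (DGKζ-/-, 6 weeks old) and 1 from wild-type mice (7 weeks old), both of strain C57BL/6. Both libraries came from naive splenic CD8+ T cells cultured for 24 hours on plate-bound antibodies to CD3 and CD28, so stimulation is common to both and no unstimulated library is compared here. DGKζ removes diacylglycerol, the lipid messenger through which the T cell receptor recruits RasGRP1 and activates Ras and ERK. The labels give neither the deleted exons nor the number of animals behind each library.

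MKPs remove the phosphates from both the threonine and the tyrosine of the activation loop of MAP kinases and thereby switch these kinases off. Dusp1, Dusp2, Dusp4 and Dusp5 encode nuclear enzymes that are made as immediate or delayed early genes after stimulation. Dusp6 and Dusp7 encode cytoplasmic enzymes that prefer ERK, and Dusp8, Dusp10 and Dusp16 encode enzymes that prefer JNK and p38. Several are transcribed in response to the kinases they inactivate, which makes them feedback inhibitors and, in activated T cells, readouts of MAP kinase activity.

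As background, 4 promoters are shown, those of the abundant member Dusp2, of Dusp1, and of Dusp5 and Dusp6. Dusp5 and Dusp6 lay on opposite sides of an equal level in the comparison. Transcription from these promoters was not measured. Each promoter shown is the 250 bases before the RefSeq start on GRCm38.p6, 5′ to 3′ on the strand of the gene. The capitals mark matches on either strand to the motifs searched. The cAMP response element is marked by its shortest form TGACG alone. A match to the shorter form TGACGTC can therefore end in lower case, as one does in Dusp1. The Dusp1 promoter is chr17:26508473-26508722 on the minus strand. The other 3 are on the plus strand, at chr2:127335909-127336158 for Dusp2, chr19:53528895-53529144 for Dusp5 and chr10:99262981-99263230 for Dusp6.
Dusp1: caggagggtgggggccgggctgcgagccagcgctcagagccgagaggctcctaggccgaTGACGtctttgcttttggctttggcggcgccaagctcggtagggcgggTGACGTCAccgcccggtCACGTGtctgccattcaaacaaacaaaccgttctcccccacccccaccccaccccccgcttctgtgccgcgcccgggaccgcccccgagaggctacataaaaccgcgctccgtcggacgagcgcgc
Dusp2: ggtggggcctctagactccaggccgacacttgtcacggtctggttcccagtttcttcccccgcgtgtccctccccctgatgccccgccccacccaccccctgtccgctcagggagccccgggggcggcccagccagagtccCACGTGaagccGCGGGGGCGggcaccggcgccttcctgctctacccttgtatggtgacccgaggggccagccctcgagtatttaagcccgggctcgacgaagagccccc
Dusp5: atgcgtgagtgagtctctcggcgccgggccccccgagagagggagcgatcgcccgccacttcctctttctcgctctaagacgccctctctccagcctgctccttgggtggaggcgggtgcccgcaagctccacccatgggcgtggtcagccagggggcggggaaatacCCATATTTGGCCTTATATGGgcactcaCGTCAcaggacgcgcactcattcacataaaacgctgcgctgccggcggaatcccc
Dusp6: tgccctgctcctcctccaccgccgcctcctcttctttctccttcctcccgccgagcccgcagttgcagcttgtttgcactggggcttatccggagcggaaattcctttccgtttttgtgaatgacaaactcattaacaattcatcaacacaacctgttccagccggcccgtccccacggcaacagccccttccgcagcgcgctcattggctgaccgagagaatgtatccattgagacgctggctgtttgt

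The motifs searched were the cAMP response element TGACGTCA with a shorter form TGACGTC and its shortest form TGACG, the AP-1 site TGANTCA, the ETS site CCGGAAG, the EGR site GCGNGGGCG, the E-box CACGTG, the TATA box TATAAA, the SRF-binding CArG box and the NF-κB site. The full cAMP response element contains both shorter forms, so their matches overlap. No promoter was available for Dusp4. For Dusp8 and Dusp16 the first bases after the start were not found in the annotated transcript, so their windows may not lead into the transcript counted. Of the 8 members with a promoter, Dusp5 alone had a CArG box, which occurred in 1.47% of 32851 promoters of the same length. It had 2 of them, adjacent, which begin 82 and 72 bases before the start. The full cAMP response element was found in Dusp1 and Dusp8 and in 1.55% of all promoters, the shorter form TGACGTC in the same members and in 2.78% of all, and the EGR site in Dusp2 and Dusp16 and in 4.70% of all. The shortest form TGACG was found in Dusp1, Dusp5, Dusp8 and Dusp16 (17.8% of all promoters), and the E-box in Dusp1 and Dusp2 (6.02%). The AP-1, ETS, NF-κB and TATA motifs, present in 6.75%, 6.91%, 3.90% and 12.4% of all promoters, had no match in the members. No motif searched occurred in the Dusp6 window. The share of G and C in the members' windows ran from 56.4% (Dusp6) to 77.2% (Dusp7), against a median of 52.4% over all promoters. The motif shares of all promoters are not matched for this difference. A match is a description of the letters, and binding was not measured.

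The libraries held 13464169 reads (DGKζ-deficient) and 37211969 reads (wild type) over all genes. Values are the authors' normalized counts, which are reads divided by a size factor of each library. The targeted gene Dgkz had 2591 normalized counts in the deficient library and 6714 in the wild-type library, 2.59-fold lower (95% counting interval 2.46 to 2.74). With 1 library per genotype no difference has a replicate check and no test was made. Intervals are exact but describe counting alone. PCR copies cannot be recognised in these libraries, so the reads are not all separate molecules. The libraries also differed in Xist, which is transcribed from the inactive X chromosome (9206 normalized counts in the deficient and 14.0 in the wild-type library), and in age, so genotype, sex and age cannot be told apart. In cells of a culture, a lower level per cell and fewer expressing cells cannot be told apart either.

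Within this family, the nuclear members Dusp4 and Dusp5 were higher and the cytoplasmic members Dusp6 and Dusp7 lower in the deficient library, all by less than 2-fold. Dusp10 and Dusp16, of the class that prefers JNK and p38, had folds of 1.03 and 1.15. Of the 9 members, 8 had a mean of at least 50 normalized counts and were compared, and Dusp8 was not. A gene was called different where log2((deficient + 10)/(wild type + 10)), termed the log2 ratio, reached 1 or -1. By this rule 0 of the 8 compared members were called higher, against 1.30% of the 10518 genes compared, and 0 were called lower, against 1.29%. With 8 genes a count of 0 is near that background, and the rule does not set the members apart.

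**Figure D1:**
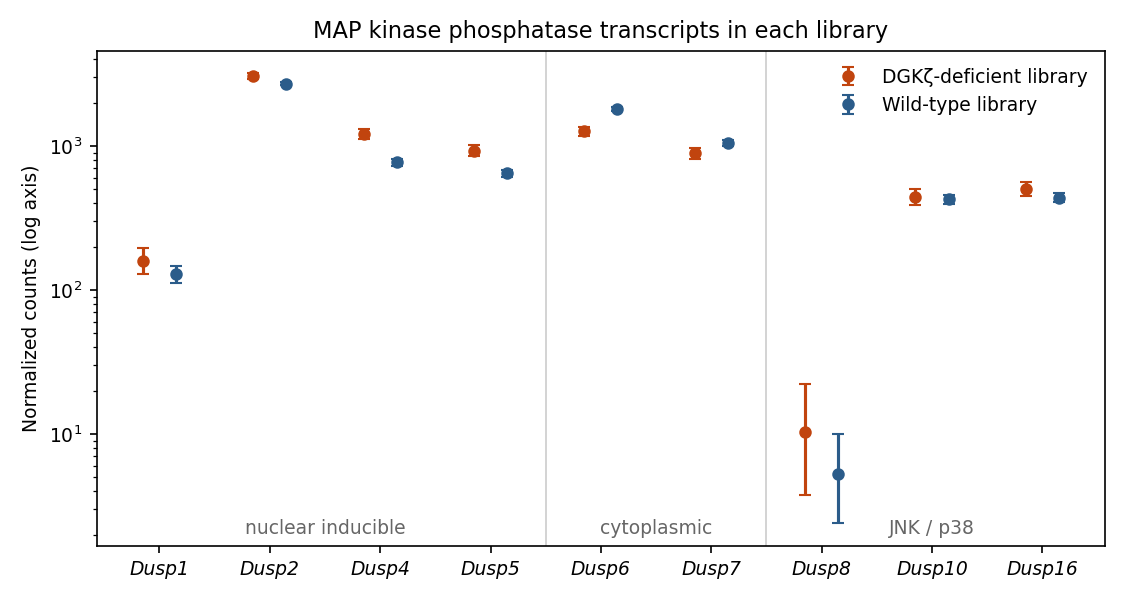
Normalized counts (log axis) of the 9 phosphatase genes in the DGKζ-deficient (left point of each pair) and wild-type library; bars are exact 95% Poisson intervals of the read count. Dusp2 was highest, at 3060 in the deficient and 2716 in the wild-type library, and Dusp8 lowest, at 10.3 and 5.25.

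Dusp2 (PAC-1), a nuclear phosphatase of ERK and p38 that is abundant in haematopoietic cells, had 3060 normalized counts in the deficient library and 2716 in the wild-type library. It was 1.13-fold higher (1.07 to 1.19). Per kilobase of transcript it was the most abundant member in both libraries, at 1892 counts per kb in the deficient and 1680 in the wild-type library. Its share of the summed counts per kb of the family was 50.1% in the deficient and 48.0% in the wild-type library, so Dusp2 accounted for about as much of the family as the other members together.

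Dusp4 (MKP-2), a nuclear phosphatase of ERK and JNK, had 1216 normalized counts in the deficient library and 772 in the wild-type library. The fold of 1.58 (1.44 to 1.73) was the highest among the compared members, and its log2 ratio of 0.65 stood at percentile 96.3 of all genes compared. Dusp5, a nuclear phosphatase that acts on ERK with little activity on other MAP kinases, had 928 and 645 normalized counts in the deficient and the wild-type library. It was 1.44-fold higher (1.29 to 1.59), with a log2 ratio of 0.52 at percentile 94.1. For these genes the Poisson intervals of the libraries did not overlap, which also held for Dusp2, Dusp6 and Dusp7. The share of all genes without overlap was not counted. Fold intervals that leave out 1 were common, above 1 for 35.8% and below 1 for 21.7% of genes compared. The Dusp5 promoter with its pair of CArG boxes is the one printed above, and a link between the boxes and this fold was not tested.

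Dusp1 (MKP-1), an early phosphatase that acts mainly on p38 and JNK, was scarce after this stimulation. It had 159 normalized counts in the deficient library and 128 in the wild-type library, from 93 reads in the deficient and 220 in the wild-type library. The fold of 1.24 had an interval from 0.965 to 1.59, which includes 1, so a difference was not detectable at this depth. In the GENCODE M21 annotation an exon of Dusp1 overlaps one of Ergic1 on the other strand. The library kit does not mark strand, so reads of the overlap cannot be assigned, and Ergic1 had 1888 and 2069 normalized counts in the deficient and the wild-type library.

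Dusp6 (MKP-3), the cytoplasmic phosphatase that retains and inactivates ERK, differed in the opposite direction. It had 1262 normalized counts in the deficient library and 1811 in the wild-type library, 1.43-fold lower (1.32 to 1.56). Its log2 ratio of -0.52 stood at percentile 6.41 of all genes compared. Dusp7 (MKP-X), its close relative, had 888 normalized counts in the deficient and 1044 in the wild-type library. It was 1.18-fold lower (1.07 to 1.30), with a log2 ratio of -0.23 at percentile 17.9.

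Dusp10 (MKP-5), a JNK and p38 phosphatase that restrains cytokine production in T cells, had 442 normalized counts in the deficient and 428 in the wild-type library. Its fold of 1.03 had an interval from 0.894 to 1.19. Dusp16 (MKP-7), a JNK phosphatase, had 502 and 436 normalized counts in the deficient and the wild-type library, a fold of 1.15 (1.003 to 1.32). Its second transcript row had 424 and 362 normalized counts, with a log2 ratio of 0.22 beside 0.20 for the row used. Dusp8, a JNK and p38 phosphatase best known from brain and heart, was near the limit of detection. It was covered by 6 reads (10.3 normalized counts) in the deficient and 9 reads (5.25) in the wild-type library, and its fold of 1.96 had an interval from 0.574 to 6.17.

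**Figure D2:**
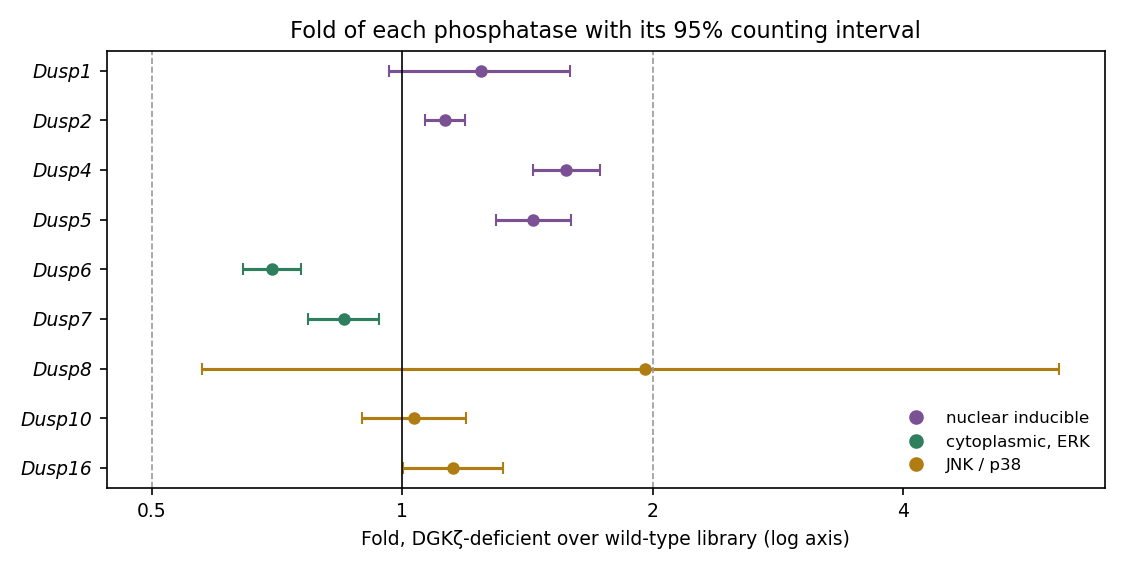
Fold of each gene, DGKζ-deficient over wild-type library (log axis), with its exact 95% counting interval; colours give the class, the solid line marks equal levels and dashed lines mark 2-fold. Dusp4 (1.58) and Dusp5 (1.44) lie to the right, Dusp6 (0.697) and Dusp7 (0.851) to the left, and the Dusp8 interval spans 0.574 to 6.17.

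The counting interval lay above 1 for 4 members (Dusp2, Dusp4, Dusp5 and Dusp16), below 1 for 2 (Dusp6 and Dusp7) and included 1 for 3 (Dusp1, Dusp8 and Dusp10). Of the 10518 genes compared, 35.8% had an interval above 1 and 21.7% one below 1, so an interval that leaves out 1 was common at these depths and does not set the members apart. With both libraries scaled to equal totals, the interval of Dusp16 ran from 0.943 to 1.24 and included 1. Those of the other members kept their side, that of Dusp2 only narrowly (1.002 to 1.12). In the authors' deposited table the log2 fold change was 0.43 for Dusp4, 0.34 for Dusp5 and -0.36 for Dusp6, closer to 0 than the log2 ratios. The same held for the targeted gene, since Dgkz had -0.20 in the authors' deposited table and a log2 ratio of -1.37. The p-values in that table also rest on 1 library per genotype. They are therefore not read here for or against a difference in any member.

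Over the 8 compared members the median log2 ratio was 0.19, against 0.055 over all genes compared, whose quartiles were -0.14 and 0.22. The members' median absolute log2 ratio was 0.26, against 0.19 over all genes. Of the 8, 3 (Dusp4, Dusp5 and Dusp6) lay outside the 10th to 90th percentile of all genes, which ran from -0.39 to 0.38. A further 3 (Dusp2, Dusp10 and Dusp16) lay between the quartiles. These are descriptions of 2 libraries.

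**Figure D3:**
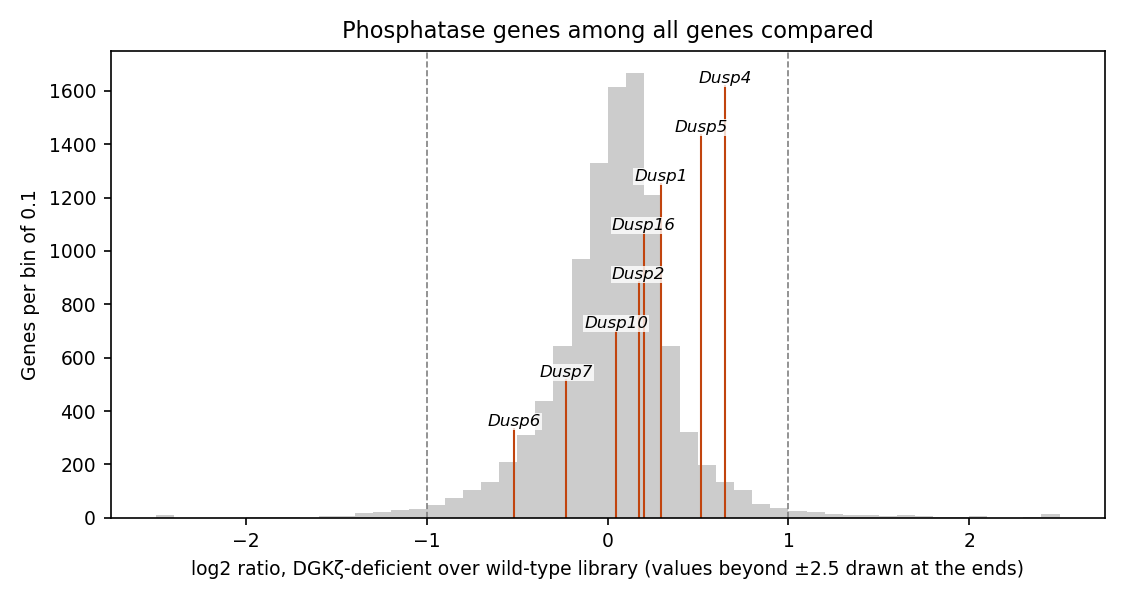
Histogram of the log2 ratio of the 10518 genes compared (DGKζ-deficient over wild type, number of genes per bin of 0.1), with the 8 compared phosphatase genes as red lines of arbitrary height; dashed lines mark the 2-fold rule. Dusp6 (-0.52), Dusp5 (0.52) and Dusp4 (0.65) stand in the tails but inside the dashed lines.

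Summed by class, the 4 nuclear inducible genes had 5363 normalized counts in the deficient library and 4262 in the wild-type library, a fold of 1.26 (1.21 to 1.31). Dusp6 and Dusp7 together had 2151 in the deficient and 2855 in the wild-type library, 1.33-fold lower (1.25 to 1.41). The 3 JNK and p38 genes summed to 955 and 869 in the deficient and the wild-type library, and that fold of 1.10 (0.995 to 1.21) included 1. The whole family summed to 8469 in the deficient and 7986 in the wild-type library, a fold of 1.06 (1.03 to 1.10), which became 0.996 (0.964 to 1.03) at equal totals. The nuclear and the cytoplasmic sums kept their directions at equal totals, with 1.18-fold higher (1.13 to 1.23) and 1.41-fold lower (1.33 to 1.50).

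By reads, nuclear inducible genes held 63.3% of the family in the deficient library (exact 95% binomial interval 62.0 to 64.7) and 53.4% in the wild-type library (52.5 to 54.2). Dusp6 and Dusp7 held 25.4% (24.2 to 26.6) in the deficient and 35.7% (34.9 to 36.6) in the wild-type library. The JNK and p38 genes held 11.3% (10.4 to 12.2) in the deficient and 10.9% (10.4 to 11.4) in the wild-type library, with overlapping intervals. These shares do not depend on the size factors, since they are taken within a library. Their intervals describe counting alone. Such shares were not computed for other gene sets, so intervals that do not overlap do not set these classes apart.

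Per kilobase, using GENCODE M21 transcript lengths found for all 9 members, the order of the levels also differed below Dusp2. In the deficient library Dusp6 followed with 451 counts per kb, then Dusp4 with 444, Dusp5 with 375, Dusp7 with 276, Dusp10 with 158, Dusp16 with 98.5, Dusp1 with 80.1 and Dusp8 with 2.14. In that order the Poisson intervals of Dusp6 and Dusp4 overlapped, as did those of Dusp16 and Dusp1, and the other neighbours did not overlap. In the wild-type library Dusp6 followed Dusp2 with 648 counts per kb, then Dusp7 with 325, Dusp4 with 282, Dusp5 with 261, Dusp10 with 153, Dusp16 with 85.5, Dusp1 with 64.5 and Dusp8 with 1.09. Only Dusp4 and Dusp5 overlapped there. The ratio of Dusp4 to Dusp6 per kb was 0.983 in the deficient and 0.435 in the wild-type library, and that of Dusp5 to Dusp6 was 0.831 in the deficient and 0.403 in the wild-type library.

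**Figure D4:**
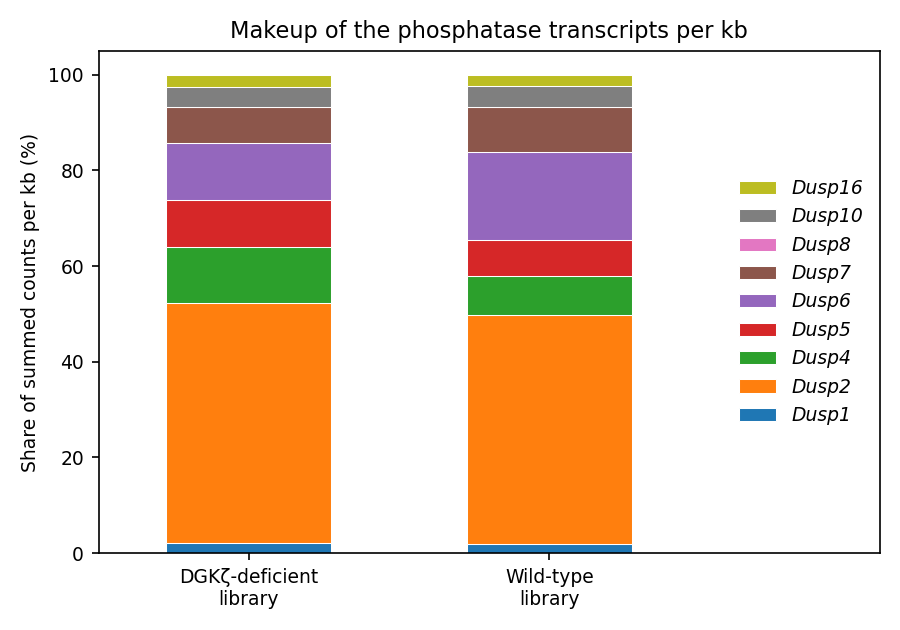
Share of each gene in the family's summed normalized counts per kilobase of transcript (%), in the DGKζ-deficient (left) and wild-type library. Dusp2 takes 50.1% and 48.0%, Dusp6 takes 11.9% and 18.5%, and Dusp4 takes 11.7% and 8.05% in the deficient and the wild-type library.

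The members are related genes, and reads could in principle be shared. Among the 36 pairs of member transcripts, 0 had a stretch of 25 or of 50 bases in common, so reads of one member do not match another over that length. Besides Ergic1, the annotation has exons of a long noncoding RNA opposite Dusp5 and of another opposite Dusp8, neither of which is a symbol in the table.

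The other genes with a DUSP name encode mostly atypical phosphatases, which lack the kinase-binding domain of the MKPs. Of 17 listed with the related STYX genes, 7 were compared, 1 was called higher, 0 were called lower and 6 were not called, with a median log2 ratio of 0.067. The called gene was Dusp14 (MKP-6), a small phosphatase described as a brake on T cell receptor signalling, with 125 and 51.3 normalized counts in the deficient and the wild-type library (2.44-fold higher, 1.76 to 3.37). Its log2 ratio of 1.14 became 0.79 with a pseudocount of 50, which ends the call, and the authors' deposited table gives 0.37. The share called higher among all genes compared was 1.30%. Dusp12 had 763 normalized counts in the deficient and 491 in the wild-type library (log2 ratio 0.63), while Dusp28 had a log2 ratio of 0.13. Dusp9, the remaining cytoplasmic ERK phosphatase of the MKP class, was below the minimum, at 41.2 normalized counts in the deficient and 38.5 in the wild-type library.

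Among 10 other phosphatases that act on MAP kinases, 9 were compared, with a median log2 ratio of 0.091. Of them 0 were called, against 1.30% called higher and 1.29% called lower of all genes compared. Ptpn5, a tyrosine phosphatase of ERK and p38, had 329 and 208 normalized counts in the deficient and the wild-type library (log2 ratio 0.64). Ppm1a had a log2 ratio of 0.35 and Ppp2ca, the catalytic subunit of PP2A, one of 0.28.

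For the kinases themselves and their activators, all 18 genes of the Ras-Raf-MEK-ERK list were compared, with a median log2 ratio of 0.026. Of them 0 were called, against 1.30% called higher and 1.29% called lower of all genes compared. Mapk3 (ERK1), named for its role after its values were seen, had 223 normalized counts in each library. The largest absolute log2 ratios were those of Rps6ka3 (RSK2, an ERK-activated kinase, -0.73), Sos1 (a Ras activator, -0.44) and Map2k1 (MEK1, 0.42). Of 20 JNK and p38 genes, 16 were compared, with a median of 0.075. Of these, 2 were called higher (1.30% of all genes compared), 0 lower (1.29%) and 14 were not called. The called genes were Gadd45b, with 813 and 243 normalized counts in the deficient and the wild-type library (3.35-fold higher, 2.93 to 3.83), and Gadd45g, with 156 in the deficient and 70.6 in the wild-type library (2.21-fold higher, 1.67 to 2.93). The Gadd45g call ended at equal totals (log2 ratio 0.96) and on median centring (0.99), as well as with a pseudocount of 50 (0.77), and the log2 fold change in the authors' deposited table was 0.17 for Gadd45b and 0.38 for Gadd45g. Both genes encode stress-induced proteins that bind and activate MAP3K4 upstream of p38 and JNK. Mapkapk3 had a log2 ratio of 0.51.

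The ERK-responsive and feedback genes, to which several MKPs are functionally related, differed in both directions. Of 26 listed, 10 had a higher and 16 a lower level in the deficient library. The log2 ratios of the 25 compared had a median of -0.075 and ranged from -1.87 to 0.95. Of these 25, 0 were called higher, 3 lower and 22 were not called. The called genes were Egr3 (log2 ratio -1.87), Spry2 (-1.48) and Egr1 (-1.01), the first and last being early growth response factors and Spry2 an inhibitor of receptor-to-Ras signalling. The share called lower among all genes compared was 1.29%. The Egr1 call ended with a pseudocount of 50 (-0.98). In the authors' deposited table none of the 3 reached -1, with -0.16 for Egr3, -0.44 for Spry2 and -0.60 for Egr1. The 8 compared MKPs ranged from -0.52 to 0.65.

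**Figure D5:**
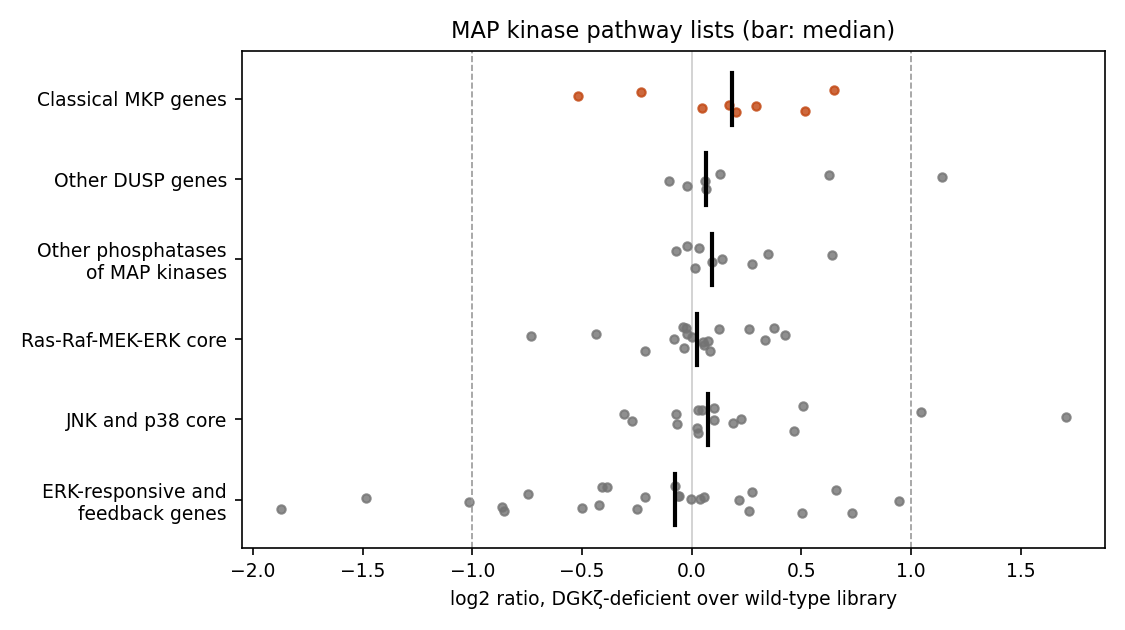
log2 ratio (DGKζ-deficient over wild type) of each compared gene in the phosphatase family (red) and in 5 related lists (grey), with the median as a black bar and dashed lines at the 2-fold rule. The phosphatase genes stay between -0.52 and 0.65, Gadd45b reaches 1.70 and Egr3 -1.87.

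The 7 CD8 T cell markers were abundant in both libraries, with a summed level of 36529 in the deficient and 43501 in the wild-type library. Of them 2 were higher and 5 lower in the deficient library. Their log2 ratios ran from -0.87 (Cd3g) and -0.63 (Cd8a), both lower than that of Dusp6 (-0.52), to 0.29 (Cd2). The rule called 0 of them, against 1.30% called higher and 1.29% called lower of all genes compared. All 9 B cell markers listed were detected and lower in the deficient library. Their summed level was 2224 in the deficient and 3013 in the wild-type library. Of these markers 8 were compared and 2 called lower, against 1.29% of all genes compared.

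Of the 4 CD4 T cell markers 3 were lower in the deficient library, and the sum was 427 in the deficient and 510 in the wild-type library. Cd4 had 53.2 normalized counts in the deficient and 171 in the wild-type library, while the regulatory T cell factor Foxp3 had 321 in the deficient and 262 in the wild-type library (a fold of 1.22, 1.03 to 1.46). The 6 NK markers summed to 2627 in the deficient and 1948 in the wild-type library, with 2 higher and 4 lower. The most abundant was Eomes, a factor that activated CD8 T cells also express, at 1861 in the deficient and 956 in the wild-type library. Klrk1 had 633 in the deficient and 587 in the wild-type library, and Klrd1, called lower, had 134 and 395 in the deficient and the wild-type library. Ncr1, Klrb1c and Klra8, the more specific NK genes, were at 0 in the deficient library, which allows up to 5.14 normalized counts (3 reads), and at 4.08, 5.25 and 1.17 normalized counts in the wild-type library.

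The 7 myeloid markers in the table summed to 268 in the deficient and 267 in the wild-type library, but 6 of them were lower in the deficient library and S100a9 was at 0 there. The exception was Mpeg1, with 185 normalized counts in the deficient and 127 in the wild-type library. The 4 erythroid markers summed to 58.3 in the deficient and 63.0 in the wild-type library, most of it Alas2 (54.9 in the deficient and 33.8 in the wild-type library), and 2 others were lower in the deficient library. B cells also express MKP genes, and the part of these cells in the values of Dusp6 and Dusp7, which were lower in the same library, was not tested.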

How the data were processed

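RNA was sequenced from 1 library per genotype, prepared with the NEBNext Ultra RNA kit per the labels' protocols, a kit that does not mark strand. STAR version 2 and DESeq were used with build mm9, per the submitters' processing notes, without saying which did what. For counter and annotation release, the sources used here give no name. The first deposited table holds a never-negative signal, normalized counts per RefSeq transcript row. Dividing each library by its smallest value above 0 gave whole numbers for 100% of its values (relative tolerance 0.0001), which are the reads. Size factors were 0.583 (deficient) and 1.71 (wild type). The recovered reads gave the counting intervals. A count test on them (edgeR) has no residual degrees of freedom with 1 library per genotype and was not run. The other table the authors deposited gives, per row, their log2 fold change, test score, p-value and adjusted p-value. Of these only the log2 fold change was used.

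Of 33018 rows, 1 was left out because an additional tab shifts its values, and the row with the highest mean stood for each symbol. Only genes averaging 50 or more normalized counts were compared. Folds have no pseudocount, and their 95% intervals are Clopper-Pearson intervals on the reads. The log2 ratio adds 10 normalized counts, which understates the change of low genes. The procedure was run on simulated counts with planted changes and Poisson variation alone. That simulation cannot show how libraries of the same genotype vary. Members, lists, thresholds and the naming rule (every member, Dgkz, the 3 largest absolute log2 ratios of each other list, and called genes where a list has at most 5 in a direction) were chosen with earlier results of these data known. Cell type markers and genes named for their position or sex linkage lie outside that rule, and some genes of the lists are not reported here by name. The ratios between members, the class shares and the promoters shown were chosen after the members' values were seen. Promoter sequences are RefSeq's on GRCm38.p6, matched by symbol for 8 members, and transcript lengths and exon overlaps are from GENCODE M21, another build than mm9, so the lengths are approximate for the authors' transcripts. Python 3.11.15, numpy 2.4.6, pandas 2.3.3 and scipy 1.17.1 were used.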

Additional observations from a re-analysis of the deposited data

How the results depend on the processing

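Under all 9 alternatives (pseudocounts of 1 and 50, equal totals, median centring, summed or lowest transcript rows, no expression minimum, a minimum mean of 200 and the authors' deposited log2 fold change) 0 members were 2-fold higher or lower. The median log2 ratio of the members ranged from 0.097 (equal totals) to 0.20. Dusp4 ranged from 0.43 to 0.65, Dusp5 from 0.34 to 0.52, Dusp6 from -0.61 to -0.36 and Dusp7 from -0.32 to -0.16, each with 1 direction. Dusp10 changed sign at equal totals (-0.041) and on median centring (-0.0077). The median of all genes was -0.033 at equal totals, against 0.055 as reported. Of 79 member values under an alternative, 4 left the counting interval of the main value. Many of the 79 could not move. Changing the expression minimum leaves a ratio as it is, and the transcript row alternatives can change Dusp16 alone. The other values within their interval are therefore not all evidence of stability. The 4 that left it were Dusp2 at equal totals (0.082) and Dusp4, Dusp5 and Dusp6 in the authors' deposited table. The cause was not tested. With a pseudocount of 50 the log2 ratios of Dusp14 (0.79), Gadd45g (0.77) and Egr1 (-0.98) no longer reached 1 or -1. No gene compared, 0 of 10518, reached them in the authors' deposited table, Egr3 (-0.16) and Gadd45b (0.17) among them. Depth limits Dusp8 and Dusp1, with 6 and 93 reads in the deficient library. No paired analysis was possible because each genotype has 1 library, and no library could be left out for the same reason.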
